A study of Mus musculus with 5 samples.

Results

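Cholesterol synthesis and lipid handling were examined through 29 genes in Langerhans cells, the phagocytes that live in the epidermis, with and without Suz12. The genes were taken by name from the table of counts per gene, which holds 27179 genes, and fall into 3 groups: 11 for sterol synthesis, 7 for fatty acid synthesis and 11 for the uptake, efflux and storage of lipid. The cells came from skin of 1-week-old C57BL/6 mice, which were either wild type (2 biological replicates) or Suz12 cKO, a conditional knockout of Suz12 (3 biological replicates). Each library was made from polyadenylated RNA of 5000 purified cells. Suz12 encodes a core subunit of Polycomb repressive complex 2, which methylates histone H3. The driver of the deletion is not given in the sources used here, and nothing says whether animals were pooled for a library. No other allele or treatment is named for either group.

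Cells make cholesterol from acetyl-CoA through the mevalonate pathway, and when membrane sterol is low the transcription factor SREBP2, encoded by Srebf2, is released from the endoplasmic reticulum and turns on the genes of that pathway. SREBP1, encoded by Srebf1, does the same mainly for fatty acid synthesis. Surplus cholesterol is esterified and stored in lipid droplets, or exported by ABC transporters onto lipoproteins such as apolipoprotein E, under the control of the liver X receptors. In phagocytes this balance follows the lipid that the cells take up, and the epidermis around Langerhans cells is itself rich in lipid.

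The libraries held 12090062 to 25725900 counts assigned to genes, the most in cKO replicate 2 and the fewest in cKO replicate 3. Levels are given as CPM, the count scaled to an effective library size of 1e+06, and the floor for a gene without counts, the worth of 3 counts, was 0.106 to 0.258 CPM. These floors and the 95% exact Poisson intervals given below cover counting error only, because the reads were amplified and carry no molecular identifiers. Langerhans cell markers were present in all libraries: all 14 of the list had counts in every library, and their summed level was 101600 to 123100 CPM. The source label names alveolar macrophages, but 5 of 11 markers of those cells (Siglecf, Car4, Chil3, Fabp1 and Cidec) were at 0 in all libraries. The other 6 had counts, though not all of them in every library. Ear2 ranged from 63.8 to 466 CPM and Krt79 from 91.3 to 177 CPM. Itgax, which is also in the Langerhans cell list, ranged from 17.5 to 78.5 CPM. Marco was almost confined to wild type replicate 1, at 864 counts or 45.7 CPM. Wild type replicate 2 held 2 counts of Marco and the cKO libraries none. Mrc1 lay at 48.05 and 28.6 CPM for wild type, against 16.7, 0 and 16.1 CPM for cKO. Ear1, Ear2, Marco and Mrc1 were highest in wild type replicate 1, Krt79 in cKO replicate 1 and Itgax in cKO replicate 2. The whole list summed to 242 to 795 CPM, with the most in wild type replicate 1. The targeted gene, Suz12, was itself scarce, with 88 and 39 counts in wild type against 0, 0 and 7 counts in cKO.

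None of the 29 genes passed the main test of genotype, by edgeR, and for all but 4 of the 26 tested the libraries of both genotypes overlapped. Cd36, the fatty acid and lipoprotein receptor, stood furthest from its wild type level among the members with counts in every library, with a mean of 2.20 ± 1.47 CPM (SD, n = 2) in wild type against 45.8 ± 14.4 CPM (SD, n = 3) in cKO. In bulk RNA, more cells that carry a transcript and more RNA per cell cannot be told apart. The lipid droplet coat gene Plin2 also lay higher in every cKO library than in both wild type libraries, though not with upper-quartile scaling, whereas Lpl and Lss lay lower in every cKO library. The sterol genes best expressed per kilobase, Fdps, Hmgcs1 and Idi1, had log2 fold changes (cKO minus wild type) of -0.30, 0.28 and -0.10. In the plot of levels per kilobase the points of both genotypes are intermingled for most genes.

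**Figure D1:**
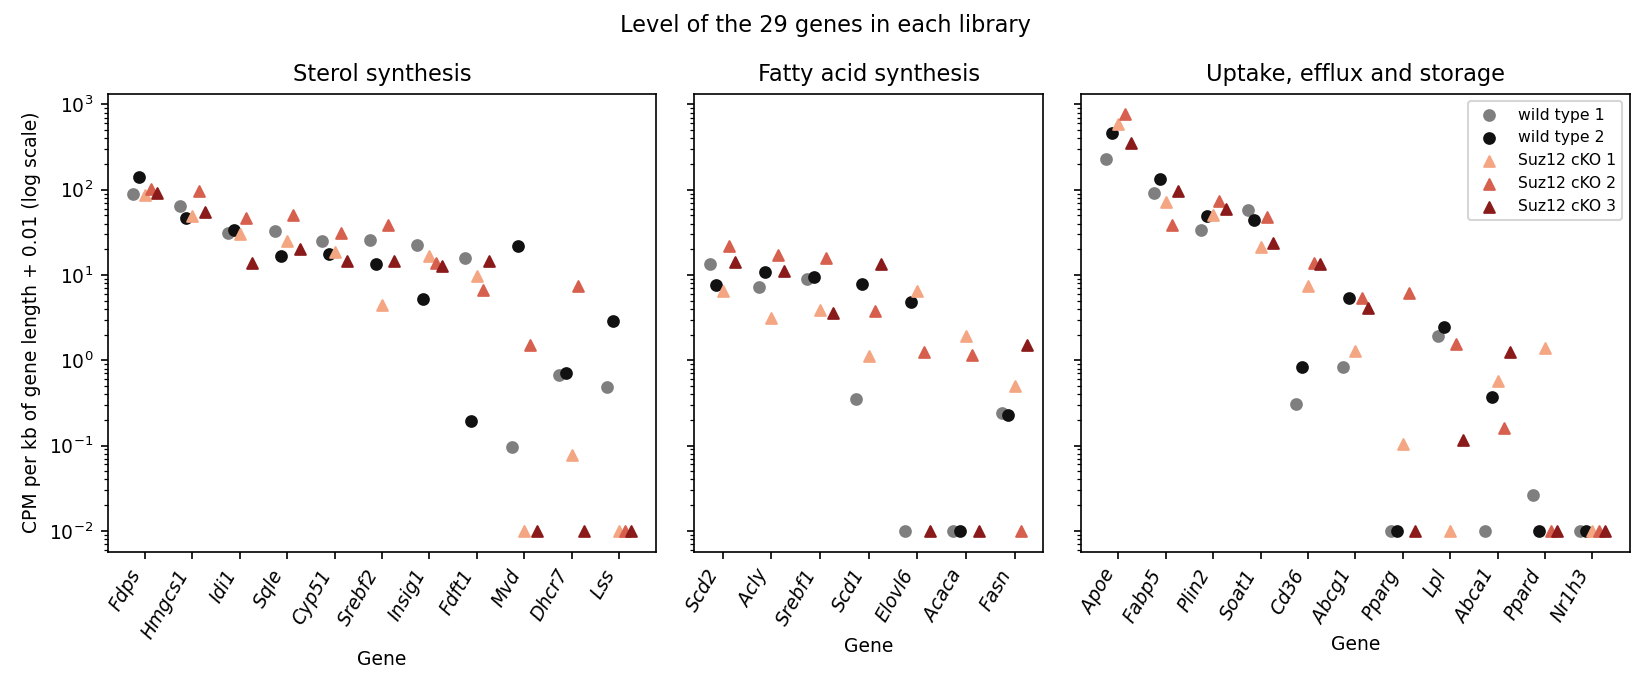
Level of each of the 29 genes in each library, as CPM per kilobase of gene length plus 0.01 on a log axis, with genes ordered by mean level within each group. Circles are the 2 wild type libraries and triangles the 3 Suz12 cKO libraries; points on the lowest line have no count. Cd36 is the gene in which all triangles lie far above both circles.

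Of the 29 genes, 26 had enough counts to test, and 0 passed edgeR's quasi-likelihood test at an adjusted p of 0.05, beside 0% of the 9988 genes tested in all. The smallest adjusted p among the members was 0.968. At an unadjusted p of 0.05, 1 member lay higher in cKO (Cd36) and 1 lower (Lss), where 2.1% and 2.05% of all genes tested did so. DESeq2, run as an alternative, gave an adjusted p to 25 members and called 1 of them, Cd36 (adjusted p = 0.00154), beside 2.12% of all genes. The 2 groups of libraries did not overlap, higher in cKO, for 2 tested members (Cd36 and, except with upper-quartile scaling, Plin2), where 8.87% of all genes tested did so. They did not overlap, lower in cKO, for 2 members (Lpl and Lss), where 10.2% of all genes did so. These shares among 26 members are near those of all genes. These p-values set the difference between the genotypes against the spread among libraries of the same genotype, from 5 libraries in all.

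**Figure D2:**
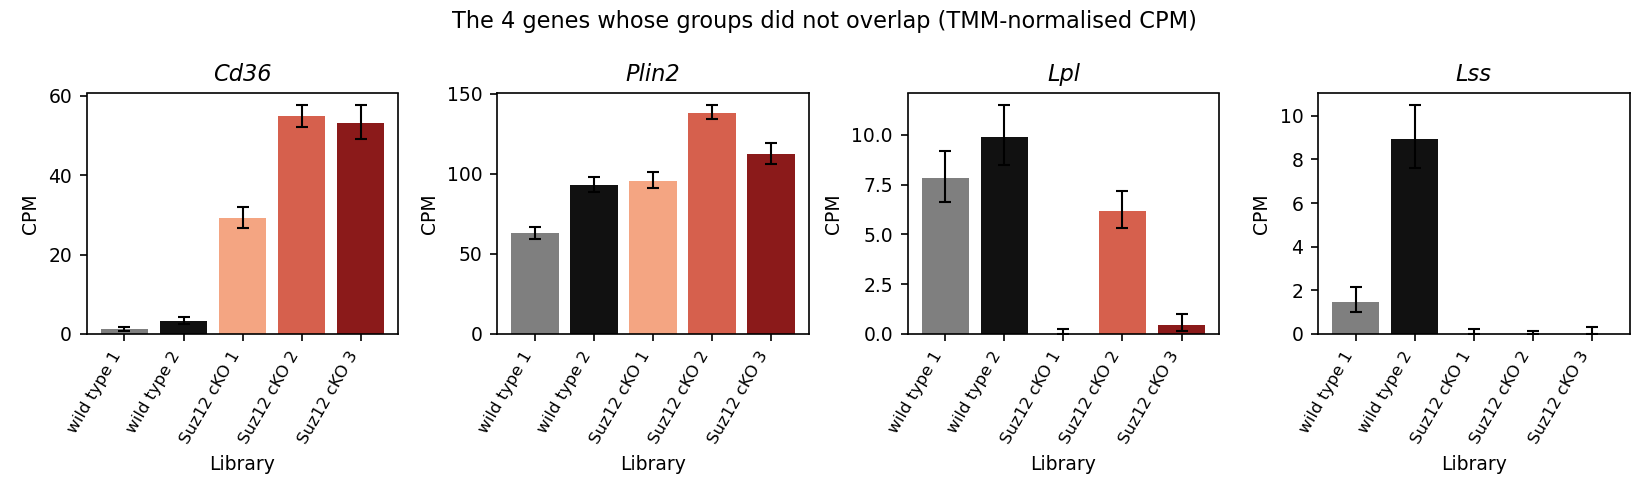
Level in CPM of Cd36, Plin2, Lpl and Lss in each library (bars), with 95% exact Poisson intervals (error bars) that cover counting error only. Cd36 is at 1.16 and 3.24 CPM in wild type but at 29.2 to 54.9 CPM in cKO, while Lss has no count in any cKO library; with upper-quartile scaling the groups of Plin2 overlapped.

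The sterol synthesis genes as a group showed no common direction. Of its 11 genes, all tested, 6 were fitted higher and 5 lower in cKO, and the median log2 fold change was 0.01, against 0.06 over all genes tested. The sterol median was 0.53 without wild type replicate 1 and -0.37 without cKO replicate 2. Over all genes tested the medians of these fits were 0.29 and -0.0087. Per kilobase of gene length, the best expressed were Fdps, Hmgcs1 and Idi1, at mean levels of 103, 62.0 and 31.1 CPM per kb over all libraries.

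Hmgcs1 encodes the synthase that makes HMG-CoA, the entry to the mevalonate pathway, and its promoter was the only member promoter listed by RefSeq that held the sterol regulatory element written TCACNCCAC on either strand. That motif was present in 1.24% of the 32851 promoters of the table (250 bases before to 50 after each start, GRCm38.p6). The CCAAT box, CCAAT on either strand, to which the SREBP partner NF-Y binds, was present in 37.4% of all promoters and in those of all 8 sterol genes with an entry. A match is a description of letters and not a binding site. The 250 bases before the Hmgcs1 start (chr13:119690101-119690350, GRCm38.p6, plus strand) are shown because they hold both motifs, in capitals, with CCAAT boxes reading ATTGG on this strand.
Hmgcs1: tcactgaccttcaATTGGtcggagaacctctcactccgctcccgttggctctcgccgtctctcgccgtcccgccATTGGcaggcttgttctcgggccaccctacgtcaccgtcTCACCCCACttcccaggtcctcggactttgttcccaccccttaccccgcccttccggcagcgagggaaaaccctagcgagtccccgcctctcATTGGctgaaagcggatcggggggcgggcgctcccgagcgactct

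The CCAAT box nearest to a listed start is shown for each of the other sterol genes with an entry, as 29 bases on the strand of the gene with the box in capitals, to show how the feature that these genes share looks in each. Its letters are CCAAT or, on the opposite strand, ATTGG. Of these 7 genes, Mvd, Lss and Dhcr7 had no count in at least 1 cKO library and the other genes had counts in all 5.
Idi1 (chr13:8885580-8885608, plus strand): gtccaaggtgccATTGGctggcgaccgac
Mvd (chr8:122443433-122443461, minus strand): ccggccagcgggCCAATcatatggcagcg
Lss (chr10:76531531-76531559, plus strand): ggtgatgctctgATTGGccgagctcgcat
Cyp51 (chr5:4104710-4104738, minus strand): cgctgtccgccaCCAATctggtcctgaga
Dhcr7 (chr7:143830153-143830181, plus strand): aatccacttccgATTGGtcgtctgtgacc
Insig1 (chr5:28071184-28071212, plus strand): cgccctcctcccATTGGctccggcggcct
Srebf2 (chr15:82147122-82147150, plus strand): cttcgcgcgccgATTGGctaatgcaagcc

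Hmgcs1 measured 209 and 151 CPM in the wild type libraries against 160, 316 and 180 CPM in the cKO ones replicates 1 to 3. The groups overlapped, with cKO replicate 2 highest, and the log2 fold change was 0.28 ± 0.42 (SE). Fdps, which makes farnesyl diphosphate, measured 131 and 207 CPM in the wild type libraries against 127, 150 and 135 CPM in the cKO ones. Its cKO libraries were close to one another and overlapped the lower wild type library. Part of its exons lies under another annotated gene, Gm43738, on the same strand. Idi1, the isomerase that precedes Fdps in the pathway, measured 88.5 and 97.2 CPM in the wild type libraries against 87.4, 133 and 39.8 CPM in the cKO ones, so its highest and lowest values both came from cKO libraries.

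Lss, Mvd, Dhcr7 and Fdft1 were present in some libraries and nearly absent in others. Lss, which closes squalene epoxide into lanosterol, lay on chromosome 10 (76531565 to 76557139, GRCm38.p6). Wild type replicates 1 and 2 held 28 and 152 counts of it, or 1.48 CPM (0.985 to 2.14) and 8.96 CPM (7.59 to 10.5), and no count in any cKO library. With the counts of each group pooled and the floor of 3 counts set over the cKO group, Lss was at least 93.5-fold lower in cKO. This bound covers counting error only and not the spread between libraries. Lss did not pass the test (edgeR unadjusted p = 0.0342, adjusted p = 0.968). Most of its wild type counts came from replicate 2, and its exons overlap those of an antisense gene, 4930483K19Rik.

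Mvd, the decarboxylase that yields isopentenyl diphosphate, measured 0.159 and 41.0 CPM in the wild type libraries against 0, 2.83 and 0 CPM in the cKO ones, so that wild type replicate 2 alone held most of its counts. Dhcr7, the last reductase before cholesterol, measured 1.85 and 1.95 CPM in the wild type libraries against 0.188, 21.2 and 0 CPM in the cKO ones, high only in cKO replicate 2. Fdft1, squalene synthase, measured 45.8 and 0.531 CPM in the wild type libraries against 27.7, 18.9 and 42.1 CPM in the cKO ones. Its low value thus came from wild type replicate 2, the library in which Mvd and Lss were highest. Exons of Fdft1 overlap those of the cathepsin gene Ctsb on the opposite strand, and whether the counts use strand is not given in the sources used here.

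Sqle, Cyp51, Insig1 and Srebf2 had counts in every library. The monooxygenase gene Sqle ranged from 45.6 to 138 CPM, and the lanosterol demethylase gene Cyp51, whose exons overlap Akap9 on the other strand, from 63.4 to 137 CPM. Insig1, which retains SREBP in the endoplasmic reticulum, ranged from 13.9 to 59.8 CPM, with both extremes in wild type libraries. Srebf2 had its lowest and highest values in cKO replicates 1 and 2, at 20.5 and 178 CPM, an 8.68-fold range within a genotype, and lay at 118 and 61.3 CPM in wild type. The log2 fold changes of these 4 genes lay between -0.02 and 0.37.

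The fatty acid synthesis genes were fitted higher in cKO for 6 of 7 genes and lower for 1, Srebf1. Among all 9988 genes tested, 5246 were fitted higher. Except for Acaca, which had no wild type count, each fatty acid gene had a fold change smaller than its standard error. The median log2 fold change was 0.43, against 0.06 over all genes tested, with no gene past the test. Without wild type replicate 1 the fatty acid median was -0.0149, and without wild type replicate 2 it was 1.53. Over all genes tested the medians of these fits were 0.29 and 0.37. The groups overlapped for all 7 fatty acid genes. Scd2, a stearoyl-CoA desaturase, was the best expressed per kilobase (12.8 CPM per kb) and measured 73.4 and 41.9 CPM in the wild type libraries against 35.0, 120 and 77.6 CPM in the cKO ones. Its cKO libraries fell on both sides of the wild type libraries. Acly, which supplies cytosolic acetyl-CoA, measured 32.4 and 47.4 CPM in the wild type libraries against 13.7, 76.8 and 49.7 CPM in the cKO ones. Srebf1 measured 38.2 and 40.7 CPM in the wild type libraries against 16.7, 68.0 and 15.5 CPM in the cKO ones. For all 3 genes cKO replicate 2 was the highest library, and the 3 cKO libraries spanned a wider range than the 2 wild type ones. More libraries tend to span a wider range, and for Srebf1 cKO replicates 1 and 3 lay close together.

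Acaca, acetyl-CoA carboxylase 1, which commits acetyl-CoA to fatty acid synthesis (chromosome 11, 84129635 to 84401651, GRCm38.p6), had no count in either wild type library. It lay at 17.3, 10.2 and 0 CPM in cKO, from 276, 288 and 0 counts. It was thus absent from 3 of 5 libraries across both genotypes, and its unadjusted p was 0.0774 (edgeR adjusted p = 0.968). Fasn, the fatty acid synthase that uses the product of Acaca, measured 2.28 and 2.18 CPM in the wild type libraries against 4.88, 0 and 15.0 CPM in the cKO ones. The elongase gene Elovl6 measured 0 and 28.7 CPM in the wild type libraries against 39.0, 7.33 and 0 CPM in the cKO ones. Libraries with no count of Elovl6 thus occurred in both genotypes. Scd1, a paralog of Scd2 with which reads may be shared, ranged from 1.64 to 65.2 CPM, lowest in wild type replicate 1 and highest in cKO replicate 3.

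Among the genes of uptake, efflux and storage, 5 of the 8 tested were fitted higher and 3 lower in cKO. Their median log2 fold change was 0.39. Without wild type replicate 2 it was 1.73, beside 0.37 over all genes tested in that fit. The remaining 3 genes, the nuclear receptors Nr1h3, Pparg and Ppard, had too few counts to test. Cd36 (chromosome 5, 17781690 to 17888959, GRCm38.p6) had 22 and 55 counts in wild type and 466, 1552 and 620 counts in cKO. On the CPM scale this was 1.16 (0.730 to 1.76) and 3.24 (2.44 to 4.22) for wild type, and 29.2 CPM (26.6 to 31.9), 54.9 CPM (52.2 to 57.7) and 53.2 CPM (49.1 to 57.6) in cKO replicates 1 to 3. All cKO libraries lay well above both wild type libraries, beyond counting error. The ratio of the means was 20.8, and the log2 fold change was 4.37 ± 1.10 (SE) (edgeR unadjusted p = 0.00557, adjusted p = 0.968).

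The sample titles are worded in 2 ways, "LC" for wild type replicate 1 and cKO replicates 1 and 2, and "Langerhans-cell" for wild type replicate 2 and cKO replicate 3. Cd36 lay higher in cKO within both wordings, at 1.16 against 29.2 and 54.9 CPM and at 3.24 against 53.2 CPM. Cd36 is also a gene of adipocytes and endothelium. Of 8 adipocyte markers, 7 had no count in any library, Adipoq and Plin1 among them, and Cfd was present only in cKO replicate 3, at 9.36 CPM. The endothelial genes Cdh5 and Kdr had no count in any library, and Pecam1 was present only in cKO replicate 3, at 4.72 CPM. Egfl7, also of endothelium, was at 0 in both wild type libraries and had 5.94, 0 and 10.99 CPM in cKO replicates 1 to 3, so it was on the side of Cd36 in cKO replicates 1 and 3 and at 0 in cKO replicate 2, where Cd36 was highest. Keratinocyte markers moved with Cd36. The summed level of 20 markers was 400.3 and 844.5 CPM in wild type against 1043, 1236 and 1168 CPM in cKO. No marker was at 0 in all libraries, and 15 of 17 tested were fitted higher. Among all 9988 genes tested, 5246 were fitted higher. The part of keratinocytes in the levels of Cd36 and Plin2 was not tested.

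RefSeq lists 1 promoter for Cd36, whose start lies inside the span of the gene. The 250 bases before it (chr5:17835897-17836146, GRCm38.p6, minus strand) are shown because Cd36 differed most among the well-measured members. They hold 1 CCAAT box, in capitals, and not the letters of the sterol regulatory element, which 1.24% of all promoters hold.
Cd36: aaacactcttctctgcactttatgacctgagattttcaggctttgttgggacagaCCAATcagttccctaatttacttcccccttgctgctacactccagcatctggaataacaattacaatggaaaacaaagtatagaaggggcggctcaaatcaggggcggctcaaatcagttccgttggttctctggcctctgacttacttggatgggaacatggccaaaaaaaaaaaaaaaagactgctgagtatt

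Plin2, perilipin 2, coats lipid droplets and is found wherever neutral lipid is stored (chromosome 4, 86626910 to 86670217, GRCm38.p6). It lay at 62.9 CPM (59.4 to 66.6) and 93.1 CPM (88.5 to 97.8) for wild type, against 95.7, 138 and 112 CPM in cKO. The groups were separate by a narrow margin, between 93.1 CPM in wild type replicate 2 and 95.7 CPM in cKO replicate 1, and with upper-quartile scaling they overlapped. The log2 fold change was 0.57 ± 0.42 (SE) (edgeR adjusted p = 0.999).

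Lpl, lipoprotein lipase, which frees fatty acids from lipoproteins (chromosome 8, 68880555 to 68906932, GRCm38.p6), lay in the opposite direction to Cd36. It was at 7.83 CPM (6.62 to 9.20) and 9.90 CPM (8.46 to 11.5) for wild type, against 0, 6.20 and 0.429 CPM in cKO, from 0, 175 and 5 counts. The interval of cKO replicate 2, 5.31 to 7.18 CPM, overlapped that of wild type replicate 1, while the other cKO libraries were near 0. The log2 fold change was -1.999 ± 2.88 (SE) (edgeR adjusted p = 0.999), and -5.33 without cKO replicate 2. Markers of dermal macrophages and monocytes, which can also carry Lpl, were fitted lower for 9 of 10 tested. Timd4 went the other way, with a log2 fold change of 3.18. Among all 9988 genes tested, 4742 were fitted lower. The summed level of the markers was 3345 and 1959 CPM in the wild type libraries against 1087 to 1524 CPM in the cKO ones. Lyz2 was the largest part of it, at 2101 and 1081 CPM in wild type. The sum was highest in wild type replicate 1, but Lpl was highest in wild type replicate 2. Of the 13 markers, Mertk and Folr2 had no count in any library. Others were present in every library, among them C1qa at 66.2 to 274 CPM and Adgre1 at 292 to 469 CPM. The part of these cells in the level of Lpl was not tested.

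Apoe was the best expressed of the 29 genes per kilobase, at a mean of 479 CPM per kb, and supplied 39.3% to 70.2% of the summed level of its group. It measured 284 and 577 CPM in the wild type libraries against 732, 958 and 447 CPM in the cKO ones. Wild type replicate 2 lay above cKO replicate 3, so the groups overlapped, and the log2 fold change was 0.73 ± 0.46 (SE) (edgeR adjusted p = 0.999). Fabp5, the fatty acid binding protein of the epidermis, measured 84.5 and 125 CPM in the wild type libraries against 66.8, 35.5 and 91.0 CPM in the cKO ones. The groups of Fabp5 overlapped. Keratinocytes also carry Fabp5. Their summed markers were higher in cKO, at 400.3 and 844.5 CPM in wild type against 1043, 1236 and 1168 CPM. Fabp5 was fitted lower, with a log2 fold change of -0.70. The part of keratinocytes in the level of Fabp5 was not tested. Soat1, which esterifies cholesterol for storage, ranged between 213 and 277 CPM in wild type, and between 101 and 229 CPM in cKO, with a log2 fold change of -0.73 ± 0.45 (SE) (edgeR adjusted p = 0.999).

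The cholesterol exporter gene Abca1 measured 0 and 3.66 CPM in the wild type libraries against 5.76, 1.56 and 12.7 CPM in the cKO ones, and Abcg1, another exporter gene, ranged from 4.82 to 31.1 CPM with overlapping groups. Nr1h3, the liver X receptor alpha gene that drives both exporters in macrophages, had no count in any library, which allows up to 0.106 CPM in the deepest library. The gene of its paralog liver X receptor beta, Nr1h2, which was not among the 29 and was chosen after its values were seen, was present throughout at 16.7 to 46.7 CPM. Pparg was without counts in both wild type libraries, and cKO replicates 1 to 3 held 3, 344 and 0 counts of it, the 344 counts being 12.2 CPM. Ppard had 1 count in wild type replicate 1, 72 counts (4.51 CPM) in cKO replicate 1 and none elsewhere. Each of these PPAR genes was thus above the floor of 3 counts in 1 library only, and in a different library for each.

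**Figure D3:**
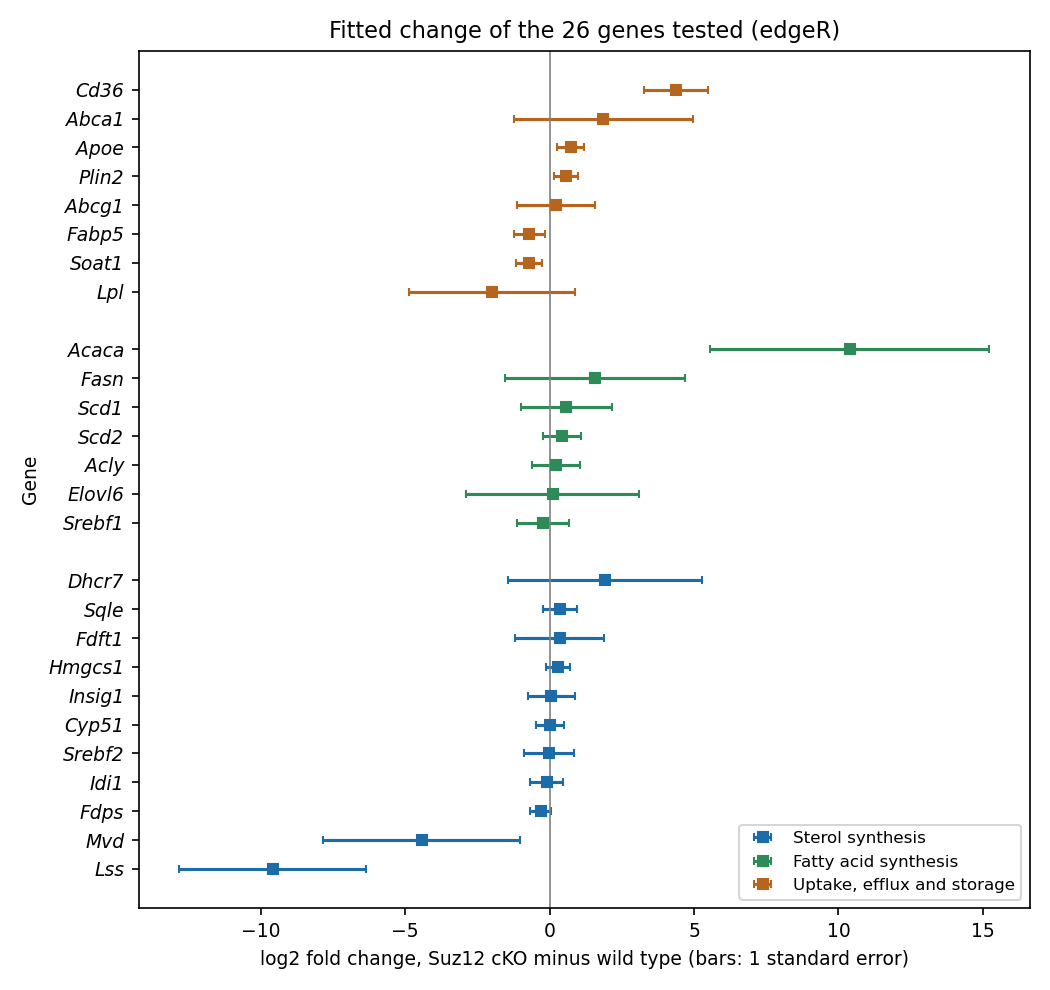
Log2 fold change, Suz12 cKO minus wild type, of the 26 genes tested with edgeR (squares) with 1 standard error (bars), by group. Only Cd36, Lss and Acaca lie beyond 2 standard errors from 0, and the values of Lss and Acaca are fitted against a group without counts, so they are no measured folds.

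A level of 10 CPM or more in some library together with less than 1 CPM in another was found for 7 of the 26 tested members (Fdft1, Mvd, Dhcr7, Fasn, Acaca, Elovl6 and Abca1), and for Pparg, which was not tested. Among all genes tested 36.9% did so, a larger share than among the members. Between 21 and 25 of the 29 genes had a count in a library. The libraries also differed in the summed level of the groups. Sums over the sterol genes were 855 and 706 CPM for wild type, and 615, 1132 and 616 CPM for cKO replicates 1 to 3. For fatty acid synthesis the sums were 148 and 199 CPM against 132, 301 and 223 CPM. For uptake, efflux and storage they were 722 and 1056 CPM against 1043, 1467 and 854 CPM. In all 3 groups cKO replicate 2 was the highest library, and 13 of the 26 tested members had their highest level in it, against 23.8% of all genes tested. This library also had the most counts and the most genes with a count, and the part of depth in this pattern was not tested.

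**Figure D4:**
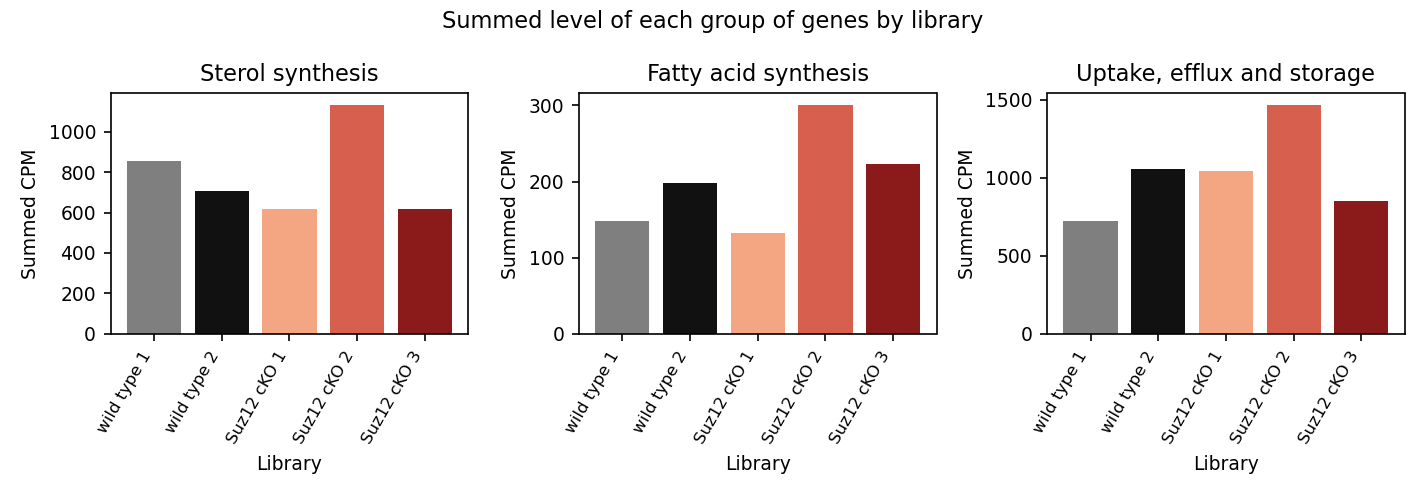
Summed CPM of the genes of each group in each library (bars). In all 3 groups Suz12 cKO replicate 2 is the highest library, and for sterol synthesis the other cKO libraries, at 615 and 616 CPM, lie below both wild type libraries.

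Other genes of the same pathways were counted from lists chosen by function. Of 20 further sterol genes 18 were tested, of 16 fatty acid genes 13, and of 25 genes of uptake, efflux and storage 20, and 0 passed edgeR in either direction. Fitted values were higher for 7, 7 and 7 of them and lower for 11, 6 and 13. Among all 9988 genes tested, 5246 were fitted higher and 4742 lower. The median log2 fold changes of the 3 lists were -0.17, 0.10 and -0.41, against 0.06 over all genes tested. Groups were separate, higher in cKO, for 0, 2 and 1 of the genes tested in each list, and lower for 3, 1 and 3. Among all genes tested 8.87% were separate on the higher side and 10.2% on the lower side.

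In the sterol list, the smallest p-values belonged to Ebp and Stard4. Ebp, a sterol isomerase, measured 161 and 149 CPM in the wild type libraries against 43.4, 97.8 and 71.6 CPM in the cKO ones. Its groups were separate, and the log2 fold change was -1.13 ± 0.45 (SE) (edgeR unadjusted p = 0.0429, adjusted p = 0.968). Stard4, a cytosolic cholesterol carrier, measured 154 and 173 CPM in the wild type libraries against 62.3, 153 and 93.9 CPM in the cKO ones, separate by a narrow margin.

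In the fatty acid list, Acsl5, which activates fatty acids to acyl-CoA, measured 489 and 389 CPM in the wild type libraries against 539, 831 and 723 CPM in the cKO ones. Its groups were separate, with a log2 fold change of 0.67 ± 0.31 (SE) (edgeR adjusted p = 0.968). Elovl1, an elongase of very long chains, measured 128 and 98.3 CPM in the wild type libraries against 90.4, 68.6 and 49.7 CPM in the cKO ones. Its groups were separate in the opposite direction. In the list of uptake, efflux and storage, Hilpda, a lipid droplet protein that inhibits lipolysis, measured 78.3 and 183 CPM in the wild type libraries against 333, 192 and 514 CPM in the cKO ones. As with Cd36, every cKO library exceeded both wild type ones, by a narrow margin in cKO replicate 2, and the log2 fold change was 1.41 ± 0.56 (SE) (edgeR unadjusted p = 0.0424, adjusted p = 0.968). Msr1, the class A scavenger receptor, was found only in cKO replicates 2 and 3, with 16.6 and 24.04 CPM.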

How the data were processed

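The authors deposited raw counts per gene with a gene length, as a table of the series and a file per sample; the counts of all 5 files were identical to the table. The submitters' processing notes name featureCounts and the build mm10. The aligner, and whether counting used strand or multi-mapping reads, is not given in the sources used here. Symbols came from RefSeq (GRCm38.p6, the coordinates of mm10) and GENCODE vM21 for 25293 of 27179 identifiers; all 29 members matched.

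Libraries were grouped by genotype from their titles. edgeR 4.0.16 in R 4.3.3 was fitted on the whole table: filterByExpr with a minimum count of 10, TMM factors, a robust quasi-likelihood F test on genotype, and Benjamini-Hochberg adjustment over 9988 genes called at 0.05. A positive log2 fold change means a higher level in cKO. CPM is the count over the effective library size; levels are compared between genes only as CPM per kb of the deposited length. Groups were called separate where all libraries of one lay above all of the other. Fits were tested on simulated data.

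The fit was repeated with DESeq2 1.42.0, with voom and quality weights in limma 3.58.1, with upper-quartile or RLE factors, unfiltered or at a minimum count of 50, without robust estimation, with the replicate number as a block, with the wording of titles as a term, and with each library left out. Same-group libraries differed beyond counting noise (chi-square of 182 to 410 per degree of freedom). Promoters came from RefSeq for 21 of the 29 genes.

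The members and lists were chosen with earlier results of these data known. Named with values in every library were members that passed, members with separate groups, the 3 with the highest level per kb in each group, those at 10 CPM or more in some library but below 1 CPM in another, and the 2 with the smallest p in each further list; Nr1h2 and the further genes of the closing section were chosen after their values were seen. Plots were made in Python 3.11.15 with matplotlib 3.10.9.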

Additional observations from a re-analysis of the deposited data

How the results depend on the processing

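The choice of tool decided whether any member was called. With DESeq2 137 genes were higher and 54 lower, and 1 member passed, Cd36, at a log2 fold change of 4.40; edgeR and limma-voom called 0 members in every other alternative, with adjusted p-values of Cd36 up to 1. The log2 fold change of Cd36 lay between 3.82 and 5.30 over 14 alternatives. Of the 26 tested members 9 kept their sign in every alternative in which they were tested. These were Abca1, Acaca, Apoe, Cd36, Fabp5, Lpl, Lss, Plin2 and Soat1. The other 17 changed sign in at least 1, and the cause was not tested. Acaca, tested in 12 alternatives, had no wild type count, and Lss, tested in 13, had no cKO count. No alternative could put counts in the empty group, so the kept signs of Acaca and Lss say little. With upper-quartile factors 1 member lay higher with separate groups. With no filter Srebf2 was at 0.0024. With limma-voom Cyp51 was at -0.12, Dhcr7 at -3.003, Fasn at -0.39 and Acly at -0.0939. With the wording of the titles as a term Cyp51 was at -0.12 and Dhcr7 at -1.69. For libraries that share a replicate number, the correlation of deviations from the group means was -0.025 for number 1 and -0.017 for number 2. With 2 wild type libraries their deviations mirror each other, so these values cannot decide whether the libraries were paired. With the replicate block 1 gene passed, higher and no member, and Idi1 was at 0.22, Fasn at -3.01 and Acly at -0.27.

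With each library left out in turn, log2 fold changes ranged from -0.57 to 2.12 for Abcg1, -0.33 to 0.69 for Acly, -0.38 to 0.28 for Cyp51, -4.20 to 2.53 for Dhcr7, -1.92 to 11.15 for Elovl6, -0.63 to 5.79 for Fdft1, -0.59 to 0.0715 for Fdps and -0.0863 to 0.54 for Hmgcs1. They ranged from -0.55 to 0.26 for Idi1, -0.64 to 1.46 for Insig1, -5.41 to 2.57 for Mvd, -0.72 to 4.17 for Scd1, -0.0343 to 0.89 for Scd2, -0.14 to 0.94 for Sqle, -1.30 to 0.13 for Srebf1 and -1.05 to 0.53 for Srebf2. Among members that kept their sign, the ranges were -5.33 to -1.38 for Lpl, 0.87 to 9.95 for Abca1 and 0.31 to 1.34 for Apoe. The median ranged from -0.37 to 0.53 for the sterol genes, -0.0149 to 1.53 for the fatty acid genes and 0.11 to 1.73 for the uptake, efflux and storage genes, the last 2 highest without wild type replicate 2. Over all genes tested, the median itself ranged from -0.0087 to 0.37 and was also highest without wild type replicate 2. Members with separate groups numbered 4 to 6 on the higher side and 2 to 7 on the lower side. Fewer libraries leave fewer ways to overlap. The share over all genes was not computed for these fits, so the counts cannot be set against it. Without a wild type library the lone one is assumed to vary like the others. Depth was 12090062 to 25725900 counts. Lss and Ppard had no count in the deepest library, cKO replicate 2, where Pparg had 344 counts and Acaca 288. Libraries without a count limit what can be said of these genes, and the part of depth in them was not tested.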

Other observations

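Further genes of cholesterol and triglyceride turnover were chosen after their values were seen, and none passed the test. Among all genes tested, groups were separate for 8.87% on the higher side and for 10.2% on the lower side. Npc2, which carries cholesterol out of the lysosome, measured 517 and 408 CPM in the wild type libraries against 320, 329 and 357 CPM in the cKO ones, with separate groups (edgeR adjusted p = 0.999). Nceh1, a cholesterol ester hydrolase of macrophages, measured 377 and 253 CPM in the wild type libraries against 226, 258 and 165 CPM in the cKO ones, with overlapping groups. Pnpla2 is the lipase that opens triglyceride stores and that Hilpda inhibits. It measured 51.3 and 79.2 CPM in the wild type libraries against 29.7, 48.9 and 24.98 CPM in the cKO ones. Its groups were separate, and the log2 fold change was -0.92 ± 0.62 (SE) (edgeR adjusted p = 0.999). Abhd5 and Dgat2, of the same list as Pnpla2, had overlapping groups and log2 fold changes of 0.01 and 6e-04. Acsl1, a paralog of Acsl5, measured 3.44 and 5.07 CPM in the wild type libraries against 15.0, 22.0 and 10.6 CPM in the cKO ones, with separate groups and a log2 fold change of 1.90 ± 1.85 (SE) (edgeR adjusted p = 0.999).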
